A study of Mus musculus with 12 samples.

Results

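The genes described here encode the machinery of the G2/M transition and of mitosis: cyclins and Cdk1, mitotic kinases, spindle checkpoint and kinetochore proteins, the chromosomal passenger complex, activators of the anaphase-promoting complex, spindle motors, cytokinesis proteins and chromosome-structure proteins. The list named 38 genes. A gene was measured through the probe sets that the platform annotation assigned to it alone, and where several existed the one with the highest mean over the 12 arrays was kept. This gave 37 members of 19938 genes measured. Ccnb1 had no probe set assigned to it alone and was not analysed here. Top2a was the only member with 2 probe sets.

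The study followed mouse embryonic fibroblasts (MEFs) from OG2 mice crossed with 129/sv during reprogramming to induced pluripotent stem (iPS) cells. In the SKO arm, the cells were infected with the SKO factors, a set of reprogramming genes that the labels do not spell out and that is usually read as Sox2, Klf4 and Oct4, together with virus carrying microRNA cluster B, microRNA cluster C or nothing (blank control virus). In the other arm, the cells received the same 3 viruses without SKO. Cells were infected 2 times, kept in mouse embryonic stem cell medium, and lysed 4 and 8 days after the first infection, which gave 12 arrays, 1 for each combination of arm, virus and day. No condition had a replicate array, and nothing in the labels says that the arrays came from separate cultures. The labels call the arm without SKO a second group, so SKO and any difference in handling between the groups cannot be told apart. OG2 mice carry an Oct4-GFP reporter, and MEF cultures are mixtures of cells, not clones. The description field names another cell and another day on all 12 arrays, so arms, viruses and days were read from the titles.

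As background, cells enter mitosis when Cdk1 bound to cyclin A or cyclin B becomes active, helped by Cdc25 phosphatases and by the Plk1 and Aurora A kinases. The spindle checkpoint holds back the anaphase-promoting complex until chromosomes are attached, and the complex then marks cyclins and securin for destruction. Transcripts of most of these genes are low in G1 and rise together in G2, partly through promoter elements bound by the DREAM and B-Myb-MuvB-FoxM1 complexes and by NF-Y. Fibroblasts that reprogram usually divide fast early on, and MEF cultures slow with time. In a bulk sample, fewer cells in G2 or mitosis and less RNA per such cell cannot be told apart.

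Promoter sequence was looked at because the members moved together, as described below. RefSeq (GRCm38.p6) held a promoter for 30 of the 37 members, and the 250 bases before each start were searched on both strands. The CHR element (TTTGAA or TTCAAA) was found in 11 of 30 member promoters, 36.7%, and in 16.3% of all 27025 promoters. The CCAAT box (CCAAT or ATTGG), the motif of NF-Y, was found in 25 of 30, 83.3%, against 34.5% of all promoters. At least 2 CCAAT matches stood in 16 member promoters, 53.3%, against 10.5%, and both motifs stood in 10, 33.3%, against 5.7%. An E2F motif (TTTGGCGC, TTTCCCGC, TTTGCCGC or TTTCGCGC on either strand) was found in 2, 6.7%, against 1.9%. A TATA motif (TATAAA or TTTATA) was found in 1, 3.3%, against 13.0%. CHR and CCAAT matches can share at most 1 base at their ends. A match is a description of letters and not evidence of binding. Given the background above, high shares were likely for a list of G2/M genes whatever the arrays showed. Whether the motifs relate to the shared movement was not tested.

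The promoters shown are those of the 5 members with the largest day change without SKO among members with a RefSeq promoter. Capitals mark CHR and CCAAT matches. Each run is the 250 bases before the start, 5′ to 3′ on the gene's strand. Kif2c lies at chr4:117178773-117179022 (minus strand), Anln at chr9:22389207-22389456 (minus), Bub1b at chr2:118597961-118598210 (plus), Ect2 at chr3:27153879-27154128 (minus) and Hmmr at chr11:40733438-40733687 (minus).
Kif2c: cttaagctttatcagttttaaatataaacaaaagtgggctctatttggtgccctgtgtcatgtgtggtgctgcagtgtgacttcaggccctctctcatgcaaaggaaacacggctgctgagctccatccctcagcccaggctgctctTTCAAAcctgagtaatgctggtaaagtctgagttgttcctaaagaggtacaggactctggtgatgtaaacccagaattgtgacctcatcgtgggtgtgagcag
Anln: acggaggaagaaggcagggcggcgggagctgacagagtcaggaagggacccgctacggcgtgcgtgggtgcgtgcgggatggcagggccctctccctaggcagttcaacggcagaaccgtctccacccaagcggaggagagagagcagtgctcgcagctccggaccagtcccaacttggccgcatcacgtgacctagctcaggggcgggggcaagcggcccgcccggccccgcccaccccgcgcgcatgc
Bub1b: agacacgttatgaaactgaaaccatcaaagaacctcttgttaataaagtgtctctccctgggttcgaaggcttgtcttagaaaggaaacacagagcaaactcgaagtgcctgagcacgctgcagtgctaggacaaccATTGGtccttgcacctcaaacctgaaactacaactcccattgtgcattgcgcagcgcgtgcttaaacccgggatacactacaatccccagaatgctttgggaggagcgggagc
Ect2: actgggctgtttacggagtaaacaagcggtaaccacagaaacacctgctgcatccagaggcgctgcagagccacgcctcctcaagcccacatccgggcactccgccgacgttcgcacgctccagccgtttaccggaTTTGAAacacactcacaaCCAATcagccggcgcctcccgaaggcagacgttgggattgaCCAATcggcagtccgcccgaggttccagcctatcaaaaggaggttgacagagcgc
Hmmr: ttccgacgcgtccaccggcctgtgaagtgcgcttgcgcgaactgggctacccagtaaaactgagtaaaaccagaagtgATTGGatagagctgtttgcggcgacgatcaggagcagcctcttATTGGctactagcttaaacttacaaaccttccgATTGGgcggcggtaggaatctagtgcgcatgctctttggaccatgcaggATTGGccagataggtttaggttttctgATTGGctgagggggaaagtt
Hmmr held 5 CCAAT matches and no CHR match, Ect2 held 2 CCAAT matches and 1 CHR match, Bub1b held 1 CCAAT match and Kif2c held 1 CHR match. Anln held neither motif in this window, although its level moved with the other members over the arrays.

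All values are the authors' log2 levels, and a difference of 1 is a 2-fold difference. The 12 arrays had medians of 4.98 to 5.07, and every member lay above them on every array, from 5.26 (Hmmr) up to 9.41 (Top2a). Fibroblast markers stood at a mean level of 9.50 to 11.1 on all arrays, with all 10 listed markers measured. The mean of 8 pluripotent-cell markers was 3.85 to 4.28 on the day 4 arrays of both arms and on the day 8 arrays without SKO it was 4.05 to 4.13. On the day 8 arrays with SKO it was 4.88 to 6.86, highest with cluster C. The mean of 7 leukocyte markers was 4.61 to 4.89 with SKO and 4.86 to 5.61 without, near the array medians. Among them Lyz2 (6.07 to 8.04) and Cd68 (5.63 to 6.51) lay above those medians on every array. Ptprc (3.56 to 4.42) lay below them, and the others lay between 3.73 and 5.53. Of 5 endothelial markers, Pecam1, Cdh5, Kdr and Emcn stayed at or below 4.33 on all arrays, and Tek alone ranged from 4.01 to 8.78. Tests used limma over all 19938 genes, with 1 fit across the 12 arrays, Benjamini-Hochberg adjustment and a threshold of 0.05. The 12 arrays allow 4 residual degrees of freedom, and their spread is how far a virus effect differed between the days. These p-values therefore measure only the spread between these 12 arrays.

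The members followed one shared profile. With each member centred on its own mean, the average member stood at 0.57 (blank virus), 0.69 (cluster B) and 0.48 (cluster C) on the day 4 arrays with SKO. On day 8 with SKO it stood at -0.23, -0.20 and 0.16 in the same order. Without SKO it stood at 0.05, -0.10 and -0.04 on day 4 and at -0.52, -0.41 and -0.45 on day 8. The SKO arrays of day 4 were thus the highest and the day 8 arrays without SKO the lowest. Across the 12 arrays, which share arms and days, the correlation of a member with the mean of the others had a median of 0.93, and 26 members were over 0.9. Kif11 (0.99) and Ncapg (0.99), a spindle motor and a condensin subunit, were closest to the mean, and Cdca3 (0.68), Cdk1 (0.71), Nusap1 (0.74) and Birc5 (0.78) were farthest from it.

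**Figure D1:**
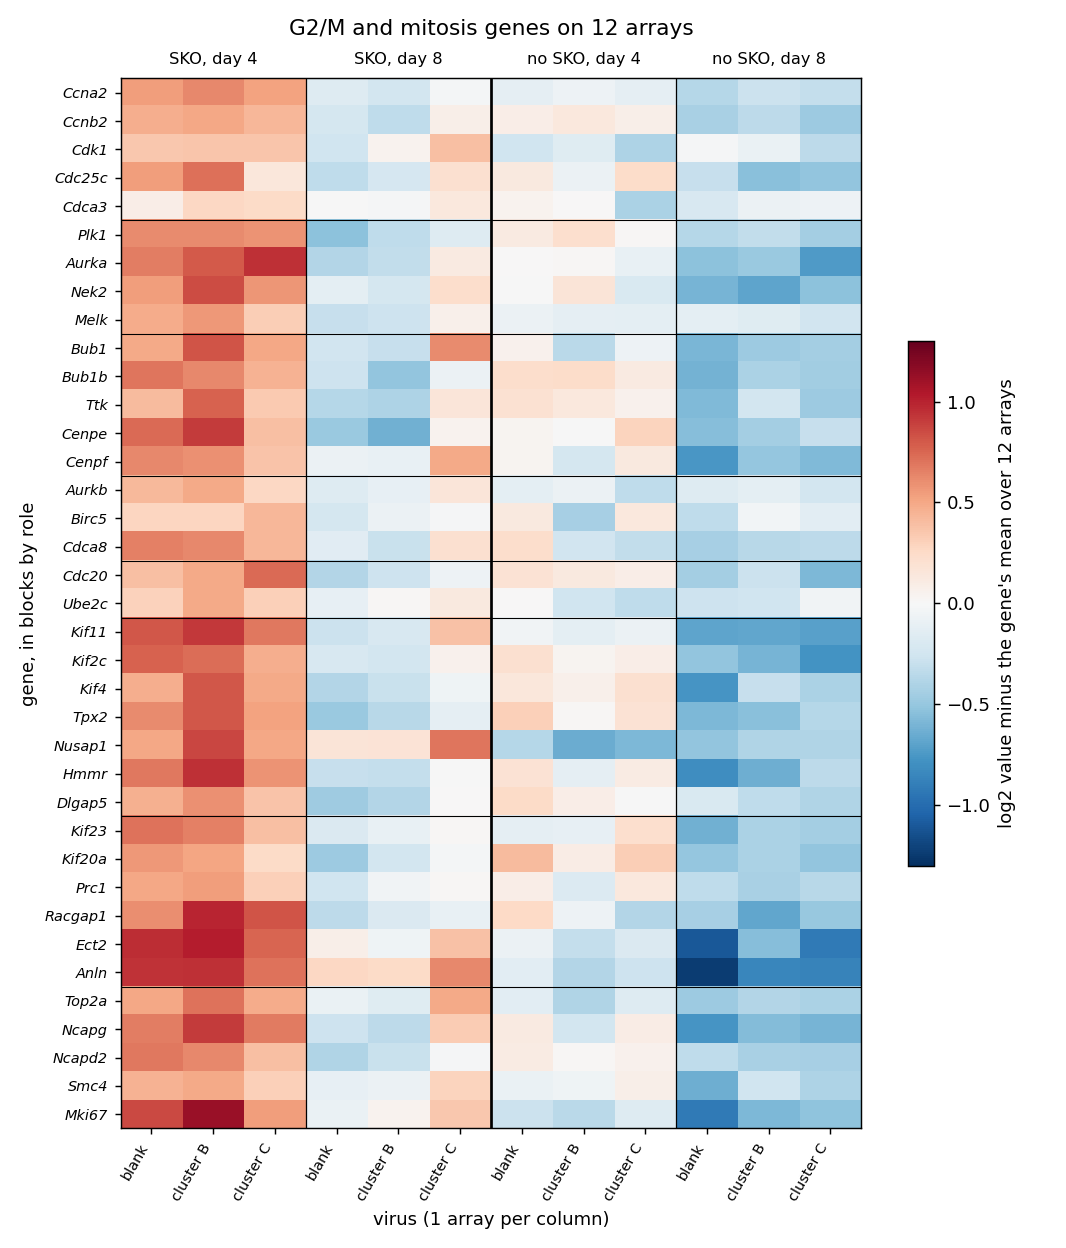
Level of the 37 members (rows, by role) on the 12 arrays (columns), as the log2 difference from each member's own mean over the arrays. The day 4 arrays with SKO are highest for most members, with averages of 0.48 to 0.69, and the day 8 arrays without SKO lowest, with averages of -0.52 to -0.41.

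At day 4, most members were higher on the SKO arrays than on the arrays without SKO. By limma, 25 of the 37 members were higher and 0 lower, where 9.52% of all genes were called higher and 9.4% lower. All 37 differences were above 0, also after quantile normalization and with equal array medians. Their median was 0.56, a 1.48-fold difference, against -0.04 over all genes. With each virus taken alone, 35 of 37 members were higher with SKO on all 3 pairs of arrays, as were 20.6% of all genes. For 35 members the 3 SKO arrays lay wholly above the 3 arrays without SKO, as for 15.8% of genes.

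The regulators of entry and the kinases were among them. Aurka, the kinase of centrosome maturation, read 8.07, 8.21 and 8.36 with SKO (blank virus, cluster B and cluster C, the order used throughout) and 7.42, 7.42 and 7.31 without. The groups did not overlap, and the difference was 0.83 ± 0.10 (SE), adjusted p = 0.000515 by limma. Plk1, Nek2 and Melk also passed, so all 4 genes grouped here as mitotic kinases rose. Kinases grouped under other roles, such as Cdk1, Bub1, Ttk and Aurkb, are given below. Ccna2, cyclin A2, read 8.83, 8.91 and 8.81 against 8.17, 8.22 and 8.17, a difference of 0.66 ± 0.10 (limma adjusted p = 0.00179). Cdk1, the kinase that drives mitosis, read 7.66, 7.66 and 7.67 against 7.05, 7.15 and 6.90, a difference of 0.63 ± 0.13 (limma adjusted p = 0.00876). For both genes the 3 SKO arrays lay close together and above all arrays without SKO. Ccnb2 (0.37 ± 0.11, limma adjusted p = 0.0524), the phosphatase gene Cdc25c (0.37 ± 0.18, 0.209) and Cdca3, an F-box protein of mitotic entry (0.32 ± 0.13, 0.116), did not pass.

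Among the genes of cytokinesis, Anln and Ect2 had the largest differences at day 4. Anln encodes anillin, the scaffold of the contractile ring, and read 9.33, 9.33 and 9.09 with SKO and 8.25, 8.00 and 8.11 without. The difference was 1.13 ± 0.16, 2.19-fold (limma adjusted p = 0.00126). Ect2, the RhoA exchange factor that starts furrowing, read 8.55, 8.60 and 8.34 against 7.51, 7.28 and 7.39, a difference of 1.10 ± 0.17 (limma adjusted p = 0.00203). Neither gene's groups came near each other. Racgap1, the Ect2 partner at the spindle midzone, rose by 0.86 ± 0.13 (limma adjusted p = 0.00183), and 5 of 6 midzone and cytokinesis genes passed. The exception was Kif20a, a midzone kinesin, at 8.05, 8.01 and 7.74 against 7.90, 7.59 and 7.81, which overlapped (0.16 ± 0.15, limma adjusted p = 0.526).

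Of 5 chromosome-structure genes, 4 rose at day 4. Mki67, the proliferation antigen that coats mitotic chromosomes, read 8.60, 8.86 and 8.28 with SKO against 7.46, 7.39 and 7.58, a difference of 1.11 ± 0.17 (limma adjusted p = 0.00183). Top2a, which untangles sister DNA, rose by 0.79 ± 0.16 (limma adjusted p = 0.0082). Among spindle proteins, 5 of 7 rose, led by Nusap1, a microtubule-bundling protein, at 6.98, 7.35 and 6.98 against 6.11, 5.84 and 5.90. Its difference was 1.15 ± 0.16, 2.23-fold (limma adjusted p = 0.0012), the largest of the 37. Kif11, the kinesin that pushes spindle poles apart, rose by 0.89 ± 0.16 (limma adjusted p = 0.004).

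Of the 5 checkpoint and kinetochore genes 1 passed, with all 5 above 0 and a median of 0.55, against 0.56 over all members. Bub1, a checkpoint kinase, read 7.47, 7.80 and 7.48 with SKO and 7.04, 6.63 and 6.91 without, and rose by 0.72 ± 0.21 (limma adjusted p = 0.0399). Cenpf (0.55 ± 0.17, limma adjusted p = 0.0583) and Cenpe (0.57 ± 0.19, 0.071), which link chromosomes to microtubules, had similar sizes with adjusted p above the threshold. Bub1b (0.40 ± 0.13, limma adjusted p = 0.0673) and Ttk (0.38 ± 0.17, 0.174) did not pass either. Among the chromosomal passengers, Aurkb and Cdca8 rose and Birc5 (survivin) did not pass (0.39 ± 0.15, limma adjusted p = 0.124). Cdc20 and Ube2c, both partners of the anaphase-promoting complex, rose.

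The day 4 count depended on single arrays. It was 8 without the SKO blank-virus array of day 4 and 8 without the SKO cluster B array. Without the cluster B array of the other arm it was 12, and without its cluster C array 11. The median difference of the members stayed at 0.46 to 0.73 with any 1 array left out. The fibroblast marker mean was 9.50 to 9.73 with SKO and 10.4 to 10.6 without at this day, with 7 of 10 markers lower and 1 higher, and muscle markers (6 genes) stood at 5.79 to 6.27 against 6.86 to 7.05. Epithelial markers (6 genes) stood at 5.41 to 5.69 against 4.85 to 5.04, and 4 of them rose; the part of these markers in the result was not tested.

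**Figure D2:**
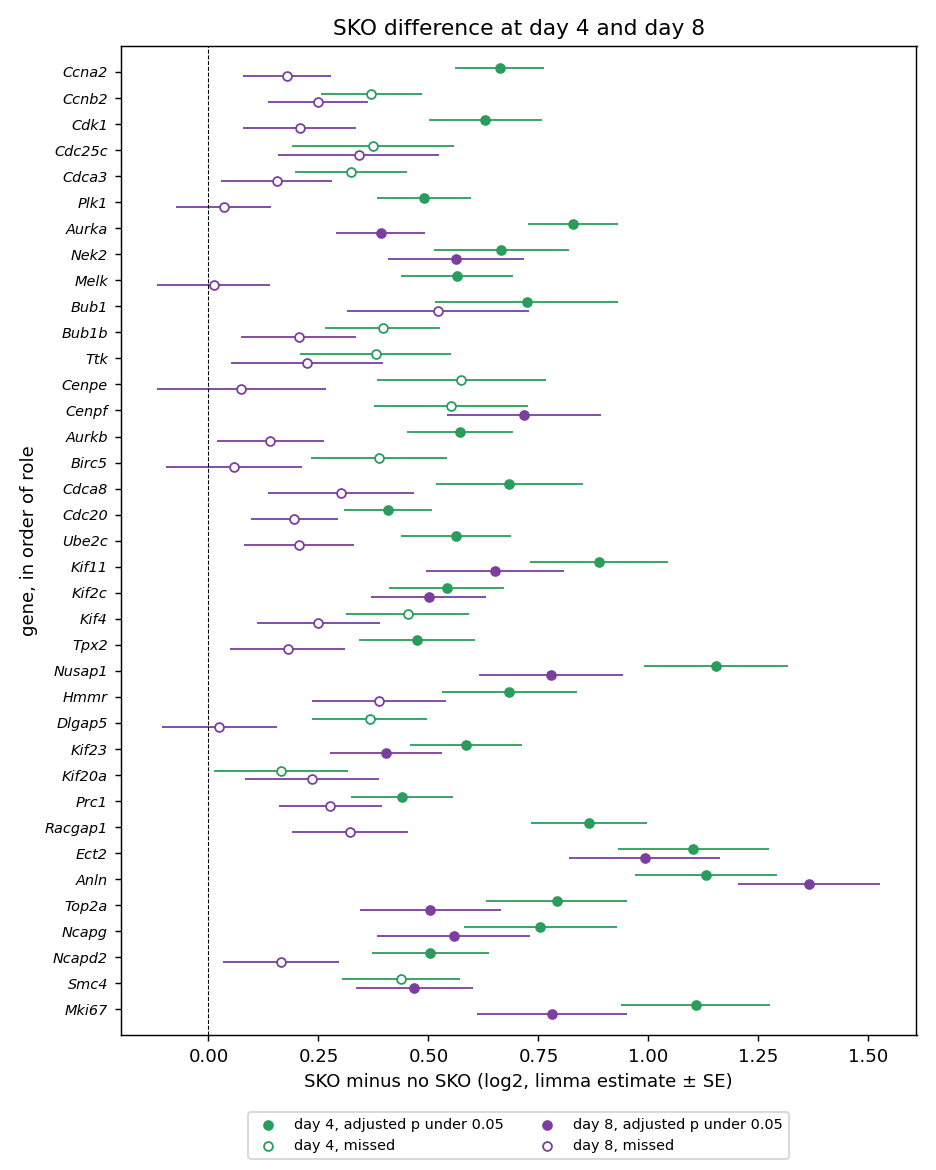
Fitted log2 difference between SKO and no SKO for each of the 37 members at day 4 and day 8, with its standard error. Day 4 differences run from 0.16 (Kif20a) to 1.15 (Nusap1), and day 8 differences from 0.01 (Melk) to 1.36 (Anln).

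At day 8 fewer members passed; the shift of this difference between the days is the same quantity as the difference in day change between the arms, tested below. By limma, 13 of 37 were higher with SKO and 0 lower, and 13.4% of all genes were called higher and 12.7% lower. All 37 differences were above 0 on the deposited scale, 33 after quantile normalization and 34 with equal array medians. The median was 0.28, a 1.21-fold difference, against -0.07 over all genes. For 26 members SKO was higher with all 3 viruses, as for 25.5% of genes, and for 21 the groups did not overlap, as for 20.7% of genes. The 2 days use separate arrays, and 11 members passed at both, of the 25 called at day 4 and the 13 called at day 8. Both tests come from 1 fit and share each gene's standard error, so the calls at the 2 days are not independent. The overlap among all genes was not counted.

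Anln held the largest difference at day 8. It read 8.65, 8.63 and 9.01 with SKO and 7.15, 7.54 and 7.52 without, a difference of 1.36 ± 0.16, 2.58-fold (limma adjusted p = 0.000282). Ect2 read 7.66, 7.53 and 7.96 against 6.48, 7.03 and 6.67, a difference of 0.99 ± 0.17 (limma adjusted p = 0.00267). Neither gene's groups overlapped. Mki67 (0.78 ± 0.17, limma adjusted p = 0.00889), Nusap1 (0.78 ± 0.16, 0.00755) and Cenpf (0.72 ± 0.17, 0.0155) rose as well. Chromosome-structure genes passed in 4 of 5, including the condensin genes Ncapg and Smc4. Genes grouped as mitotic kinases passed in 2 of 4, Aurka and Nek2.

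Other regulators did not pass at day 8, and of these Plk1 and Melk lay near 0. Plk1, the kinase of centrosome maturation and mitotic exit, read 7.46, 7.66 and 7.83 with SKO and 7.63, 7.67 and 7.55 without, groups that overlapped (0.03 ± 0.11, limma adjusted p = 0.84). Melk, a kinase of dividing cells, read 6.55, 6.58 and 6.92 against 6.72, 6.69 and 6.60, with only the cluster C array above the other arm (0.01 ± 0.13, limma adjusted p = 0.955). Cdk1 read 7.05, 7.35 and 7.69 against 7.29, 7.22 and 6.96, which also overlapped (0.21 ± 0.13, limma adjusted p = 0.274). No gene of the 3 passenger or 2 anaphase-promoting complex members passed, nor any of the 5 cyclin and entry genes.

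The day 8 count was 7 without the SKO blank-virus array, 4 without the SKO cluster C array, 2 without the blank-virus array of the other arm, 8 without its cluster B array and 6 without its cluster C array. Without the SKO cluster C array the median was 0.13. With the viruses taken 1 at a time the median difference was 0.20 for blank virus, 0.18 for cluster B and 0.51 for cluster C. The fibroblast marker mean was 9.57 to 9.83 with SKO and 11.0 to 11.1 without, with 8 of 10 markers lower, the epithelial mean 6.78 to 7.74 against 4.87 to 5.14, with all 6 higher, and 4 of 8 pluripotent-cell markers were higher. All 7 leukocyte markers were lower with SKO (means of 4.64 to 4.89 against 5.42 to 5.61), as were 4 of 6 muscle markers (5.80 to 5.88 against 6.96 to 7.09). The part of these markers in the result was not tested.

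Between day 4 and day 8 most members fell in the SKO arm. By limma, 25 of 37 were lower at day 8 and 0 higher, where 3.66% of all genes were called lower and 5.24% higher. All 37 changes were below 0, also after quantile normalization and with equal array medians. The median was -0.70, a 1.62-fold fall, against -0.01 over all genes. In 31 members the change was below 0 with all 3 viruses, as in 22.2% of genes, and in 30 the days did not overlap, as in 14.0% of genes. This comparison and the day 4 difference between arms share the 3 SKO arrays of day 4.

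All 4 genes grouped as mitotic kinases fell, while the passenger kinase Aurkb did not pass (-0.43 ± 0.12, limma adjusted p = 0.06). Aurka went from 8.07, 8.21 and 8.36 to 7.03, 7.10 and 7.53, so it fell by 1.0 ± 0.10 on the log2 scale, 1.99-fold (limma adjusted p = 0.000639). Plk1 went from 8.61, 8.61 and 8.58 to 7.46, 7.66 and 7.83, a change of -0.95 ± 0.11 (limma adjusted p = 0.00113). The day 8 arrays of both genes all lay below the day 4 arrays, and the cluster C array was the highest of the 3 at day 8. Ccna2 and Ccnb2 fell, by 0.71 ± 0.10 (limma adjusted p = 0.00354) and 0.63 ± 0.11 (0.0109) on the log2 scale, while Cdk1 did not pass (-0.30 ± 0.13, limma adjusted p = 0.21).

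Spindle and cytokinesis genes fell in 6 of 7 and 5 of 6 cases. Tpx2, which activates Aurora A on spindle microtubules, went from 8.52, 8.71 and 8.42 to 7.43, 7.54 and 7.79, a change of -0.97 ± 0.13 (limma adjusted p = 0.00281). Racgap1 went from 8.35, 8.73 and 8.56 to 7.40, 7.55 and 7.65, a change of -1.01 ± 0.13 (limma adjusted p = 0.00235). For both genes the days were well apart. Hmmr, a spindle-associated protein, fell with them (-0.95 ± 0.15, limma adjusted p = 0.00641). Anln, whose difference between arms was large, did not pass here (-0.48 ± 0.16, limma adjusted p = 0.105), nor did Nusap1 (-0.27 ± 0.16, 0.378).

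At the kinetochore, 3 of 5 genes fell. Cenpe, a kinetochore motor, went from 7.15, 7.32 and 6.81 to 5.93, 5.78 and 6.46, the largest change of the members at -1.04 ± 0.19, 2.05-fold (limma adjusted p = 0.0121). Its cluster C arrays were nearest each other. Bub1b fell by 0.88 ± 0.13 on the log2 scale (limma adjusted p = 0.00434), and Cdc20, the checkpoint's target, by 0.78 ± 0.10 (0.00208). Bub1 (-0.59 ± 0.21, limma adjusted p = 0.126), Cenpf (-0.43 ± 0.17, 0.186) and Top2a (-0.48 ± 0.16, 0.107) did not pass, and in each of them the cluster C array of day 8 reached the day 4 range.

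The count in the SKO arm was 8 without either blank-virus array and 7 without either cluster B array. Without either cluster C array it was 30, and the median was -0.90. The pluripotent-cell marker mean went from 3.85 to 4.15 at day 4 to 4.88 to 6.86 at day 8 in this arm, with 4 of 8 markers higher, and the epithelial mean from 5.41 to 5.69 to 6.78 to 7.74, with all 6 higher; their part in the result was not tested.

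**Figure D3:**
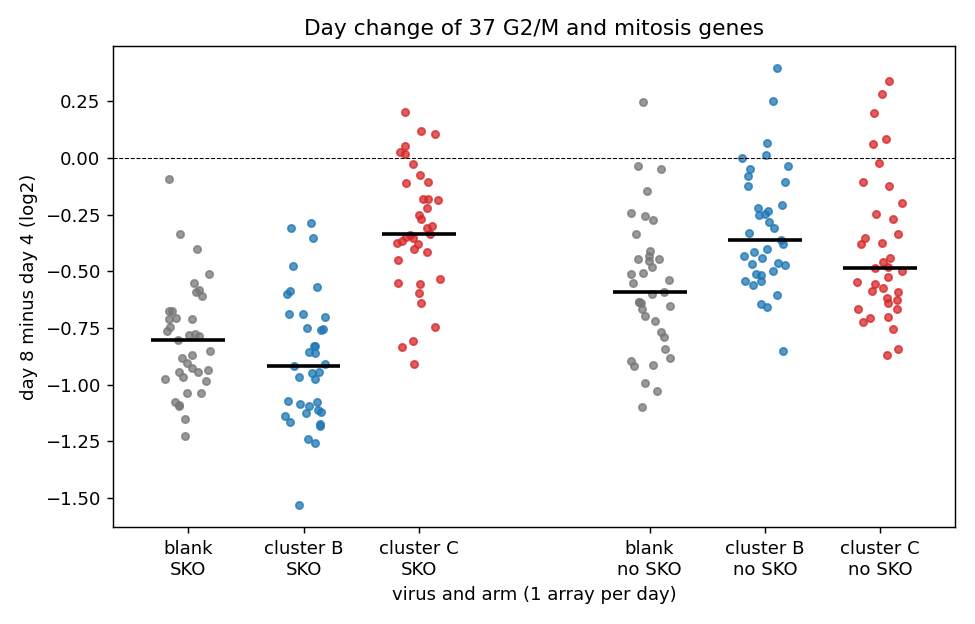
Change from day 4 to day 8 of the 37 members, 1 array against 1, for each virus and arm, on the log2 scale, with a bar at the median. With SKO the medians are -0.80 (blank virus), -0.92 (cluster B) and -0.34 (cluster C). Without SKO they are -0.59, -0.36 and -0.48 in the same order.

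Some of the members also fell with time in the cells that received no SKO. By limma, 15 of 37 were lower at day 8 and 0 higher, where 4.63% of all genes were called lower and 4.05% higher. The median was -0.50, a 1.41-fold fall, against 0.01 over all genes. The fitted change was below 0 for 32 members (35 with equal array medians). It was below 0 with all 3 viruses in 30, as in 22.4% of genes, and the days did not overlap in 30, as in 15.8% of genes. The 2 arms use separate arrays, and 14 members passed in both, of the 25 called with SKO and the 15 without. Both tests come from 1 fit and share each gene's standard error, so the calls in the 2 arms are not independent. The overlap among all genes was not counted.

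Motors and cytokinesis genes led the fall without SKO. Kif20a went from 7.90, 7.59 and 7.81 to 6.98, 7.07 and 6.97, a change of -0.76 ± 0.15 (limma adjusted p = 0.0185). Kif2c, a kinesin that takes microtubules apart at centromeres, went from 7.60, 7.43 and 7.48 to 6.88, 6.79 and 6.61, a change of -0.74 ± 0.13 (limma adjusted p = 0.011). Both genes separated the days completely. Anln went from 8.25, 8.00 and 8.11 to 7.15, 7.54 and 7.52 (-0.72 ± 0.16, limma adjusted p = 0.0287) and Ect2 from 7.51, 7.28 and 7.39 to 6.48, 7.03 and 6.67 (-0.67 ± 0.17, 0.0458), with the blank-virus pair moving farthest in both. In all, 5 of 7 spindle genes, 4 of 6 midzone and cytokinesis genes and 3 of 4 genes grouped as mitotic kinases fell. Bub1b, the checkpoint protein BubR1, went from 7.55, 7.57 and 7.44 to 6.71, 6.91 and 6.87 (-0.69 ± 0.13, limma adjusted p = 0.015), the 1 checkpoint gene of 5 that passed.

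A few members stayed near 0 without SKO. Aurkb, the passenger kinase, read 7.30, 7.35 and 7.10 at day 4 and 7.27, 7.30 and 7.19 at day 8 (0.00 ± 0.12, limma adjusted p = 0.999). Ube2c, the conjugating enzyme of the anaphase-promoting complex, read 6.51, 6.25 and 6.17 and then 6.23, 6.24 and 6.45 (0.00 ± 0.13, limma adjusted p = 0.994). In both genes the days overlapped. Cdk1 (0.12 ± 0.13, limma adjusted p = 0.608), Nusap1 (0.10 ± 0.16, 0.759), Melk (-0.07 ± 0.13, 0.787) and Cdca3 (0.01 ± 0.13, 0.987) did not pass. No chromosome-structure gene of 5 and no passenger of 3 passed. Cdc25c, Cdca3 and Birc5 passed in none of the 4 comparisons of arm and day.

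The count without SKO was 0 without either blank-virus array of this arm (20 members at unadjusted p under 0.05 by limma), 5 without either cluster B array and 1 without either cluster C array. It was 25 with a variance trend and robust fit and 24 with dim genes left out. The fibroblast marker mean went from 10.4 to 10.6 at day 4 to 11.0 to 11.1 at day 8, with 3 of 10 markers higher, and leukocyte markers from 4.86 to 5.22 to 5.42 to 5.61, with 2 of 7 higher; their part in the result was not tested.

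Whether the fall with time differed between the arms was tested directly. By limma 0 of 37 members passed, and 1.97% of all genes were called higher and 1.0% lower. At unadjusted p under 0.05 there were 7 members, a share near the 17.3% of all genes. The median of the change with SKO minus that without was -0.24, and 33 of 37 values were below 0. Melk, which read 7.33, 7.41 and 7.17 and then 6.55, 6.58 and 6.92 with SKO but 6.77, 6.73 and 6.72 and then 6.72, 6.69 and 6.60 without, had the most negative value (-0.55 ± 0.18, limma adjusted p = 0.155). Racgap1 (-0.54 ± 0.19, limma adjusted p = 0.177), Cenpe (-0.50 ± 0.27, 0.389) and Ccna2 (-0.48 ± 0.14, 0.12) came next, and Anln had the highest value (0.23 ± 0.23, 0.654). The count was 5 with a variance trend and robust fit and 1 with dim genes left out. The median was -0.45 without either SKO cluster C array and -0.14 without either SKO cluster B array.

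No member passed for the microRNA viruses when the days were fitted together. With SKO, limma called 0 of 37 members for cluster B against blank virus and 0 for cluster C, where 0.00502% and 0.015% of all genes were called higher. At unadjusted p under 0.05 there were 0 and 2 members, where all genes had 3.08% and 6.82%. The medians were 0.09 and 0.13, with 29 and 34 members above 0. Cluster C against cluster B gave 0 called members by limma (1 unadjusted, where all genes had 5.53%), where 0.015% of genes were called higher, and a median of 0.07. Without SKO the medians were 0.00 for cluster B against blank virus, -0.03 for cluster C against blank virus and 0.01 for cluster C against cluster B, with 0 members called by limma (0 unadjusted) in each and 0.0% of genes called. The effect with SKO minus that without had a median of 0.10 for cluster B and 0.18 for cluster C, again with 0 called by limma (1 and 4 unadjusted, where all genes had 5.2% and 5.79%). The cluster B median was -0.08 without the SKO cluster B array of day 4, -0.03 without the SKO blank-virus array of day 8 and 0.25 without the SKO cluster B array of day 8. The cluster C median was -0.11 without the SKO cluster C array of day 8 and 0.43 without that of day 4.

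The cluster C arrays stood differently among the SKO arrays on the 2 days. On the SKO arrays of day 8, all 37 members were highest with cluster C. They exceeded blank virus by 0.14 to 0.86, with a median of 0.36, where 46.3% of all genes were above 0, and exceeded cluster B by a median of 0.34. On the SKO arrays of day 4, 26 members were lowest with cluster C, and the median against blank virus was -0.10, where all genes had -0.0021. There, 25 members had their highest value of all 12 arrays with cluster B. The shares of all genes with such ranks among the arrays were not counted on either day. These are differences of 1 array against 1 and carry no test.

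Bub1 and Kif11 had the largest cluster C differences from blank virus at day 8. Bub1 at day 8 with SKO read 6.73 with blank virus, 6.68 with cluster B and 7.59 with cluster C, and on day 4 it had read 7.47, 7.80 and 7.48. Kif11 read 6.78, 6.86 and 7.44 on day 8 after 7.87, 7.98 and 7.75. In both genes the cluster C array stood apart on day 8 only. Top2a read 8.62, 8.55 and 9.20 on day 8 after 9.21, 9.41 and 9.19, so its cluster C arrays differed by 0.02 between the days. Cdk1 likewise read 7.67 and 7.69 with cluster C, against 7.66 and 7.05 with blank virus.

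The change from day 4 to day 8 with SKO, taken 1 pair of arrays at a time and again with no test, had a median of -0.80 with blank virus and -0.92 with cluster B, each with all 37 members below 0. With cluster C it was -0.34 with 31 below 0. Of all genes, 47.9% were above 0 with blank virus, 52.2% with cluster B and 46.6% with cluster C. In 34 of 37 members the highest day 8 minus day 4 value was with cluster C, and the share of all genes was not counted. That count uses the same cluster C array of day 8 described above and is not a separate result. Without SKO the medians were -0.59, -0.36 and -0.48 in the same order.

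A fit that let the cluster C effect with SKO differ between days was added after the day 8 array was seen to stand apart, and it has 3 residual degrees of freedom. At day 8 it gave a median of 0.38 over the members, all 37 above 0, with 0 members called by limma (14 unadjusted, 6.88% of all genes unadjusted). Bub1 (0.96 ± 0.22, limma adjusted p = 0.483) and Kif11 (0.66 ± 0.16, 0.492) came nearest. The day 8 effect minus the day 4 effect had a median of 0.54 with 35 of 37 above 0, and again 0 were called by limma (18 unadjusted, 6.31% of all genes unadjusted). The extra term of the added fit was placed on the array already seen to stand apart. Its unadjusted counts follow partly from that choice and add no separate evidence. The pooled medians rested on single arrays. Cluster C against blank virus was 0.38 without the SKO cluster C array of day 4 and -0.14 without that of day 8. Likewise cluster C against cluster B was 0.36 and -0.22, and cluster B against blank virus was -0.10 without the SKO cluster B array of day 4. The 0.38 and -0.14 are the same estimates that the added fit gives for day 8 and day 4, not separate results. The SKO cluster C array of day 8 also had the highest pluripotent-cell marker mean, 6.86, and the highest epithelial mean, 7.74; their part in the result was not tested.

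**Figure D4:**
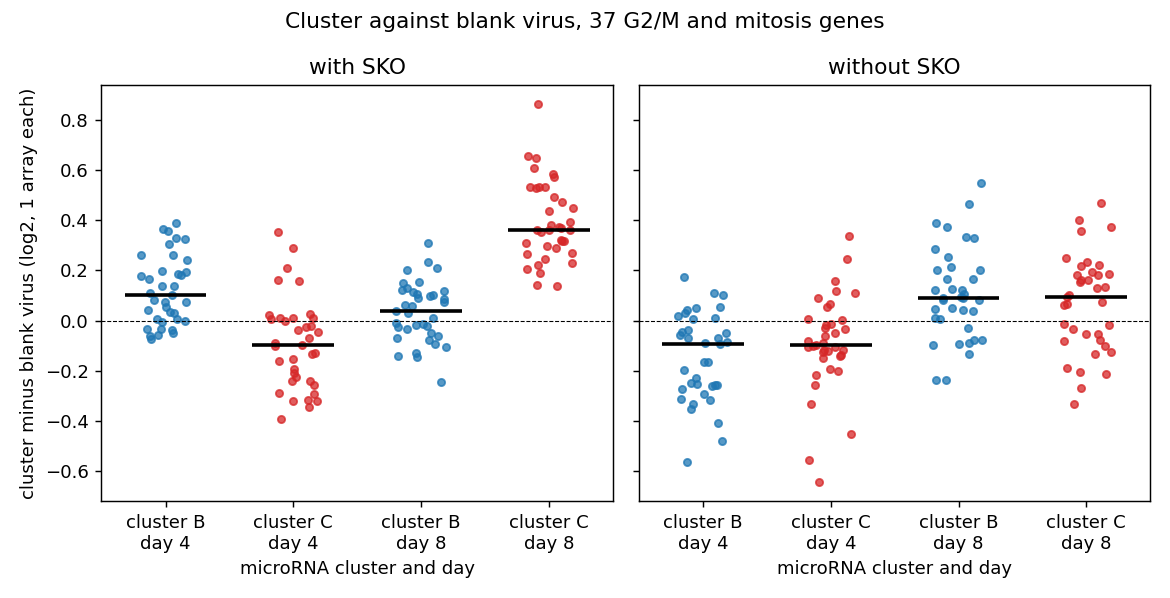
Difference of cluster B and cluster C from blank virus for the 37 members, 1 array against 1, in each arm and day, on the log2 scale, with a bar at the median. With SKO at day 8 every cluster C point is above 0, from 0.14 to 0.86, and in the other columns the points lie on both sides of 0.

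Other cell cycle genes were read from 7 lists chosen with earlier results of these data known. Their counts stand beside the shares of all genes, of which 9.52% rose with SKO at day 4 and 13.4% at day 8, and 3.66% fell with time with SKO and 4.63% without. In the other direction, 9.4% of all genes fell with SKO at day 4 and 12.7% at day 8. With time, 5.24% rose with SKO and 4.05% without. In the spindle, centrosome and cytokinesis list (39 measured), 23 genes rose with SKO at day 4 and 23 fell by day 8 with SKO, while 9 rose with SKO at day 8 and 8 fell without SKO, with none in the opposite direction by limma. Cep55, the abscission scaffold, rose by 1.25 ± 0.13 at day 4 (limma adjusted p = 0.000241), and Kif14, a cytokinesis kinesin, fell by 1.06 ± 0.17 on the log2 scale over time with SKO (0.00596). Of 38 kinetochore and centromere genes, 11 rose at day 4, 7 rose and 1 fell at day 8 (Cenpt, -0.40 ± 0.12, limma adjusted p = 0.0442), 10 fell with time with SKO and 2 without. The 7 rises at day 8 (18.4% of the list) and the 2 falls without SKO (5.26%) were near the shares of all genes. Sgo2a, a protector of centromeric cohesion, rose by 0.98 ± 0.14 at day 4 (limma adjusted p = 0.00134). Knl1, the scaffold that recruits Bub1, fell by 0.80 ± 0.17 on the log2 scale with time with SKO (limma adjusted p = 0.0202).

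Cohesin, condensin and separase genes were higher with SKO at both days, 14 of 18 at day 4 and 13 at day 8, and fell with time in 4 with SKO and 1 without. The last is 5.56% of the list, near the share of all genes. Stag2, a cohesin subunit, rose by 1.04 ± 0.11 at day 8 (limma adjusted p = 0.000156), and Espl1, the protease that cuts cohesin, fell by 0.76 ± 0.10 on the log2 scale with time with SKO (0.00254). Of 20 further activators of mitotic entry, 10 rose with SKO at day 4 and 8 at day 8, and 5 fell with time with SKO and 2 without. Ccnf, cyclin F, fell in both arms, by 0.85 ± 0.12 (limma adjusted p = 0.00337) and 0.68 ± 0.12 (0.0107) on the log2 scale. The 17 anaphase-promoting complex genes had medians of -0.02 and -0.01 for SKO at the days and -0.06 and -0.07 for time. Of these, Cdc16, a core subunit, fell with SKO (-0.71 ± 0.10, limma adjusted p = 0.00146 at day 4) and Fbxo5, an inhibitor of the complex, rose (0.79 ± 0.16, 0.00865).

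Genes of the G1/S transition and DNA replication had a median near 0 over time in the arm without SKO. With SKO at day 4, 28 of 39 rose with a median of 0.66, and by day 8 with SKO 15 fell with a median of -0.32. Without SKO, that median was 0.02, where the members had -0.50, and the 1 gene that passed rose (Rrm2, a ribonucleotide reductase subunit, 0.36 ± 0.09, limma adjusted p = 0.0469). The difference between the lists was not tested. Rrm2 also passed the test of the difference between arms (-0.92 ± 0.13, limma adjusted p = 0.00977), and Ccnd1, cyclin D1, had risen by 1.51 ± 0.10 at day 4 (1.69e-05).

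Brakes on the cell cycle moved in both directions. With SKO, 5 of 26 rose and 7 fell at day 4, and 8 rose and 5 fell at day 8. The rises were 19.2% and 30.8% of the list, and the falls 26.9% and 19.2%. Rb1, the retinoblastoma protein, was higher by 2.37 ± 0.17 at day 4 (limma adjusted p = 2.13e-05) and by 2.41 ± 0.17 at day 8 (1.01e-05). Btg2, an antiproliferative gene, fell by 1.21 ± 0.09 on the log2 scale at day 4 with SKO (limma adjusted p = 3.77e-05) and by 1.57 ± 0.09 with time without SKO (4.57e-05), and its day change differed between arms (1.56 ± 0.13, 0.00075). With time, 4 brakes rose and 4 fell with SKO, and 2 rose and 5 fell without.

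**Figure D5:**
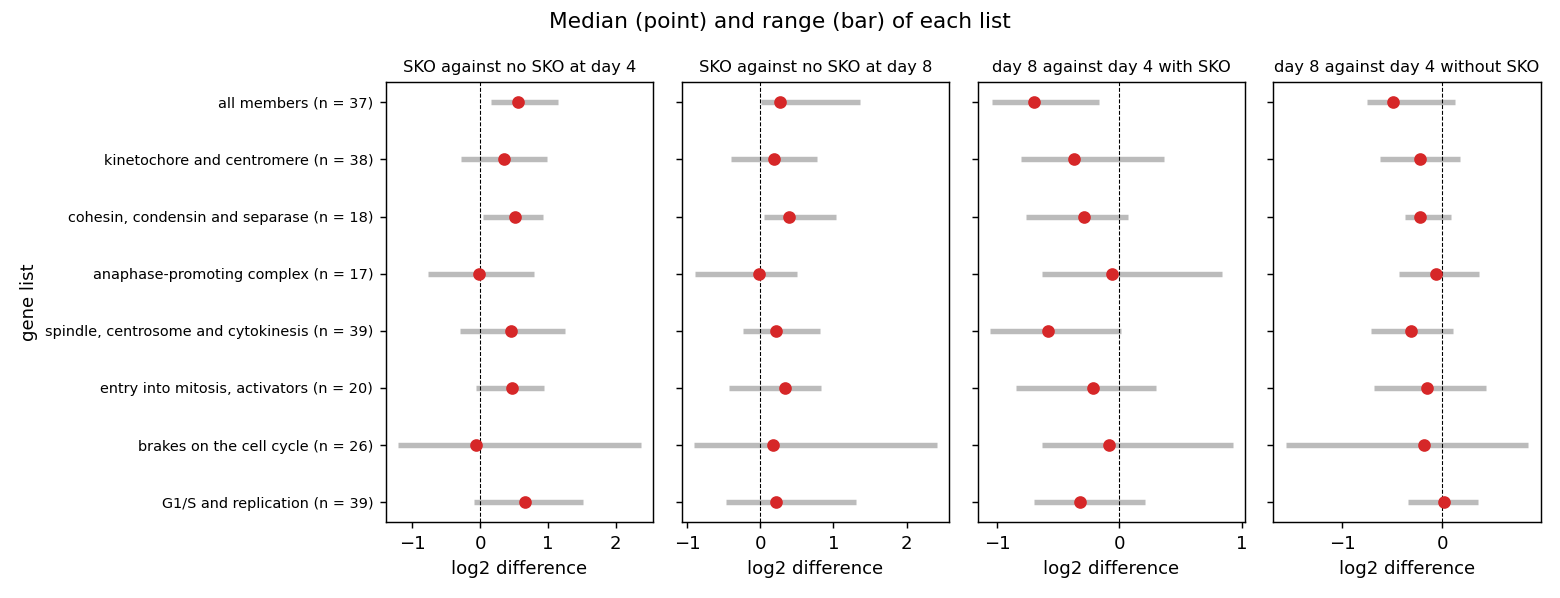
Median log2 difference of the members and of the 7 cell cycle lists in the 4 comparisons of arm and day. The members have medians of 0.56, 0.28, -0.70 and -0.50, and the G1/S list has 0.66, 0.22, -0.32 and 0.02.

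The genes outside the list whose pattern was most like the members' mean over the 12 arrays were Cdca2 (correlation 0.985), Cip2a (0.98), Cenpa (0.977), Bdp1 (0.975), Shcbp1 (0.974), Nup155 (0.974), Ccnf (0.972), Kif15 (0.972), Senp1 (0.971) and Hspa8 (0.97), of 9558 genes compared. In all, 207 genes were over 0.9, and 49 of them stood in the cell cycle lists. For Cip2a, an inhibitor of the phosphatase PP2A, SKO exceeded no SKO on day 4 by 0.78 (limma adjusted p = 0.0156) and on day 8 by 0.55 (0.052). The change with time was -0.97 with SKO (limma adjusted p = 0.0122) and -0.74 without (0.0383). Cenpa, the centromeric histone H3 variant, rose with SKO at both days by 0.76 and 0.47 (limma adjusted p = 0.00211 and 0.0194). Its change with time was -0.69 with SKO (limma adjusted p = 0.00882) and -0.40 without (0.075). Hspa8 passed in none of the 4 comparisons of arm and day (limma adjusted p of 0.127 to 0.202). These genes were picked for likeness to the members on the same arrays. Their directions therefore follow from the choice, and their p-values add no separate evidence. The arrays share arms and days, so these correlations describe the 12 arrays only.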

How the data were processed

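RNA from 12 MEF samples was hybridised to 1-colour Affymetrix arrays from 100 ng of total RNA, per the labels' protocols, which also state that feeder cells were removed. The authors deposited 1 log2 value per probe set and array, and the submitters' processing notes list RMA and Partek but no version. The scale was read from the values, 0.916 to 14.0. Of 28853 probe sets, 21789 named 1 gene, 1621 several and 5443 none, and 21698 matched RefSeq by Entrez ID. All genes were fitted with limma 3.58.1 (R 4.3.3) with SKO, day, virus, SKO by day and SKO by virus as terms (8 coefficients, 13 comparisons). Signal spread, not read depth, limits precision; the median residual SD was 0.152. Simulated data had independent normal errors and a change in 200 of 19938 genes. There the day comparison without SKO recovered 56.8% of changes of 0.58 and 97.8% of changes of 1 on the log2 scale. False calls were 5.98% of calls. The real comparison called more genes, 807 higher and 923 lower, so these rates may not hold for the members. Alternatives were a variance trend with robust fit, quantile normalization, equal array medians, dim genes left out (8406), mean of probe sets, each arm alone, an additive fit and leaving out each array. Named genes were all members, up to 2 rises and 2 falls per cell cycle list and comparison, and the 10 most alike genes. The members and lists were chosen with earlier results of these data known.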

Additional observations from a re-analysis of the deposited data

How the results depend on the processing

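No paired analysis was possible because each condition has 1 array and the labels give no replicate numbers to use as a block; arrays of the same virus are matched through the virus term of the fit. Leaving out 1 array at a time, members called numbered 8 to 33 for SKO at day 4 and 2 to 14 for SKO at day 8. For time they numbered 7 to 30 with SKO and 0 to 22 without. In the same fits the member median was 0.46 to 0.73 for SKO at day 4 and 0.13 to 0.41 for SKO at day 8. For time without SKO it was -0.52 to -0.48. The medians ranged from -0.90 to -0.56 for time with SKO, -0.45 to -0.14 for the difference between arms, -0.10 to 0.19 for cluster B against blank virus with SKO, -0.14 to 0.38 for cluster C against blank virus, -0.22 to 0.36 for cluster C against cluster B, -0.0802 to 0.25 for the cluster B effect with SKO minus without and -0.11 to 0.43 for the cluster C effect with SKO minus without. A variance trend with robust fit called 25 members lower with time without SKO and 5 for the difference between arms, and leaving out dim genes called 24 and 1, against 15 and 0; the cause was not tested, though the second tests fewer genes. Cluster C fitted by day, an alternative chosen after seeing the data, gave medians of -0.14 (day 4) and 0.38 (day 8). These are the same estimates as leaving out the SKO cluster C array of the other day.

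For SKO at day 8, quantile normalization turned Birc5 to -0.0178, Dlgap5 to -0.0617, Melk to -0.0749 and Plk1 to -0.0208, and equal array medians turned Dlgap5 to -0.00988, Melk to -0.0234 and Plk1 to -0.000642. For time without SKO, equal array medians turned Aurkb to -0.0372, Cdca3 to -0.0323 and Ube2c to -0.0351. Without 1 array, SKO at day 4 ranged from -0.0103 to 0.37 for Kif20a, and SKO at day 8 from -0.0203 to 0.23 for Aurkb, -0.12 to 0.31 for Birc5, -0.17 to 0.14 for Dlgap5, -0.17 to 0.12 for Melk and -0.0669 to 0.14 for Plk1. Time without SKO ranged from -0.042 to 0.0254 for Aurkb, -0.36 to 0.0646 for Birc5, -0.16 to 0.13 for Cdca3 and -0.14 to 0.14 for Ube2c, and cluster C against blank virus from -0.0831 to 0.96 for Bub1. Over single genes, 1360 of 1468 values under other settings kept direction and side of the threshold, 34 lost and 64 gained the call and 10 reversed; without 1 array, 2127 of 2724 kept both, 539 lost and 41 gained the call and 17 reversed. Signal over background was not estimated.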
